A study of Mus musculus with 6 samples.

Results

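Tight and adherens junction genes were examined in mouse colon tumours of 2 genotypes by the array values deposited for 6 tumours. The genes were chosen by name: all claudins, the Marveld and nectin genes, Tjp1, Tjp3, Jam2 and Jam3, and 16 further genes of tight junctions, adherens junctions and desmosomes. Of 19938 genes with a probe set of their own, 55 met this rule, 28 of them claudins. The hypomethylated tumours came from Dnmt1chip/c; ApcMin/+ mice, which carry a hypomorphic (chip) and a knockout (c) allele of Dnmt1, the gene of the enzyme that copies DNA methylation onto new strands. The control tumours came from Dnmt1chip/+; ApcMin/+ mice, with the chip allele beside a wild-type one. There were 3 tumours of each genotype. ApcMin, a truncated allele of the Wnt pathway tumour suppressor Apc, was common to both genotypes, all mice were hybrids of C57BL/6 and 129Sv4 parents, and all were fed 2% (w/v) dextran sodium sulfate, which injures the colon and promotes tumours, from 6 weeks of age. Tumours were taken at 20 weeks. The design text ascribes lower methylation of satellite repeats to chip/c mice; methylation itself was not analysed here. The sample descriptions share a number within all 3 hypomethylated tumours and within 2 of the 3 control tumours, and no label says that tumours came from separate mice, so the spread behind each p-value is that of these samples alone, and genotype and individual mouse cannot be told apart.

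Epithelial cells of the colon are held together by a stack of junctions near their upper edge. Claudins are membrane proteins that form the tight junction strands and set which ions pass between cells: some members seal, others form channels. Zonula occludens and cingulin proteins tie the strands to actin. Below them, E-cadherin with the catenins, and nectins with their own partners, form adherens junctions, and desmosomal cadherins with plakophilins and desmoplakin tie cells to keratin. Beta-catenin has a second role as the transcriptional effector of Wnt signalling, the pathway that loss of Apc activates.

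Values are read on a log2 scale, which no label states and their range supports, and each probe set is centred on its median over the 6 arrays. They show differences between tumours and keep no level, so genes cannot be ranked by abundance, and 6 arrays limit the precision. Steps in the deposited numbers point to 36 of the 55 genes having all values at 8 or above before centring, here called bright; only 10 of the 28 claudins were bright. The other genes can lie near the array's floor, where a difference is understated. In a bulk tumour, fewer cells of a type and less RNA per cell cannot be told apart. Dnmt1 had centred values of -0.37, -0.48 and -0.42 in the hypomethylated tumours, against 0.44, 0.52 and 0.37 in the control tumours (limma, adjusted p = 3.13e-04). Its probes may read parts that the alleles leave in place, so the labels stay unchecked by this value. For Apc the difference was -0.23 (adjusted p = 0.115).

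Of the 55 junction genes, 16 were higher and 4 lower in the hypomethylated tumours at an adjusted p of 0.05 (limma, Benjamini-Hochberg over all genes). This is 29.1% higher and 7.27% lower, beside 10.7% higher and 21.3% lower among all 19938 genes. The median difference was 0.08 on the log2 scale over the junction genes and -0.01 over all genes. The groups did not overlap in 30 junction genes, or 54.5%, beside 46.4% of all genes. Of the 20 called genes 12 differed by less than 0.5 on the log2 scale (60%, beside 57.7% of all called genes). Of the 55 junction genes 1, Cldn15, was called and at least 2-fold higher, and 0 were called and at least 2-fold lower. Among all 19938 genes these numbered 467 (2.34%) and 310. Among bright genes tested apart, 14 of 36 junction genes were higher and 6 lower (38.9% and 16.7%), beside 16.1% and 37% of all 10545 such genes; in that set the median of all genes was -0.11 and that of the junction genes 0.08. The split also depended on single tumours. With each tumour left out in turn, the higher genes numbered 11 to 14 and the lower ones 1, without control replicate 1, to 8, without hypomethylated replicate 1; they were 2 without hypomethylated replicate 2 and 2 without control replicate 3.

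**Figure D1:**
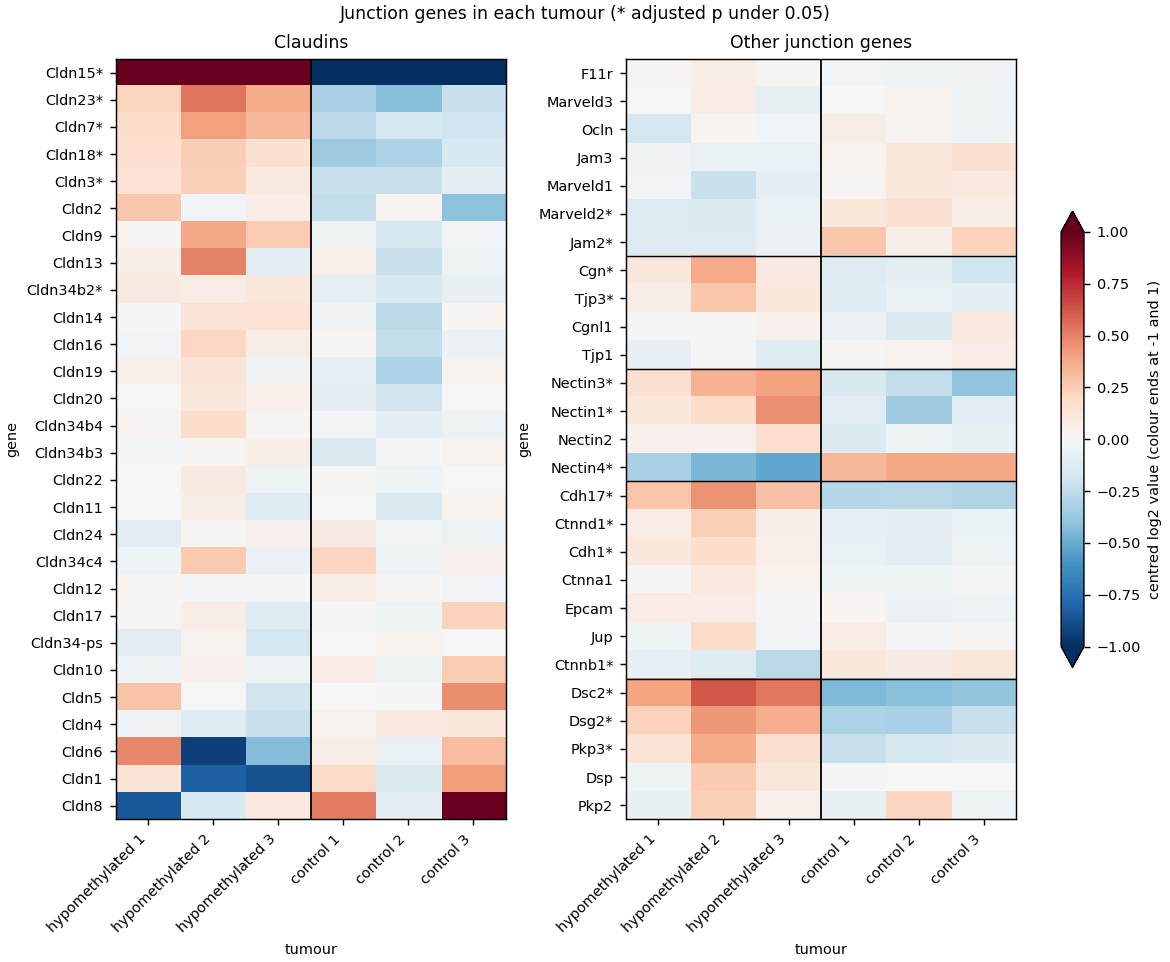
Centred log2 values of the 55 junction genes (rows, claudins left) in each tumour (columns, hypomethylated left of the line, control right of it), with black rules between gene groups and an asterisk for an adjusted p under 0.05. Cldn15 leaves the colour scale at both ends, and Cldn1, Cldn6 and Cldn8 at the foot of the left panel vary within both groups.

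The claudins were led by Cldn15. It codes for a channel-forming claudin of the gut that lets sodium pass between cells. Its centred values were 1.07, 1.20 and 1.47 in the hypomethylated tumours, against -1.07, -1.19 and -1.32 in the control tumours. Every hypomethylated tumour lay far above every control tumour. Cldn15 rose by 2.44 ± 0.12 (SE) on the log2 scale, 5.42-fold (adjusted p = 1.20e-04), and ranked 80 among the differences of all 19938 genes. By an exact two-sided permutation test over the 20 assignments of 3 against 3 it had p = 0.1, the smallest this design allows, as did every gene whose groups did not overlap.

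Sealing claudins and Cldn7 moved by far less. Cldn23, reported in human tissue as a claudin of the upper colon epithelium, had 0.22, 0.54 and 0.37 in hypomethylated tumours, against -0.33, -0.43 and -0.22 in control tumours, and rose by 0.70 ± 0.09 (SE) on the log2 scale (1.63-fold, adjusted p = 0.00215). Cldn7, which lies along the whole lateral membrane of gut cells and binds Epcam, had 0.18, 0.41 and 0.33 in hypomethylated tumours, against -0.27, -0.18 and -0.20 in control tumours. It rose by 0.52 ± 0.07 (1.43-fold, adjusted p = 0.00264). Cldn3, a sealing claudin, had 0.15, 0.24 and 0.09 in hypomethylated tumours, against -0.22, -0.22 and -0.09 in control tumours, and rose by 0.34 ± 0.07 (1.26-fold, adjusted p = 0.00954). In all of these genes the groups were separate, by a gap that was smallest in Cldn3.

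A further pair of claudins passed the test without being bright. Cldn18, best known from stomach and lung, had 0.17, 0.25 and 0.15 in hypomethylated tumours, against -0.35, -0.31 and -0.15 in control tumours, and rose by 0.46 ± 0.07 (SE; adjusted p = 0.00363). Cldn34b2, an X-linked claudin-like gene, rose by 0.19 ± 0.05 (adjusted p = 0.0306), a call lost whichever tumour was left out. Its probes may also read the closely related Cldn34 copies. The calls of Cldn15, Cldn23, Cldn7, Cldn18 and Cldn3 were kept whichever tumour was left out.

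Of the 28 claudins 6 were higher (21.4%), beside 10.7% of all genes. No claudin passed as lower in limma, beside 21.3% of all genes. At an unadjusted p under 0.05, 3 of the 28 were lower, beside 5391 of all 19938 genes. Cldn4, a sealing claudin, came nearest to passing, with -0.04, -0.12 and -0.22 in hypomethylated tumours, against 0.04, 0.10 and 0.10 in control tumours. The groups were just separate and the difference was -0.21 (95% interval -0.36 to -0.05, adjusted p = 0.0504). It passed with array weights, among bright genes tested apart and without hypomethylated replicate 1 (adjusted p = 0.0285, 0.0331 and 0.0292), and was -0.16 without hypomethylated replicate 3 (adjusted p = 0.130). Array weights gave control replicate 1 a weight of 7.69 and the other tumours 0.51 to 0.99, so calls gained with them here and below rest largely on that tumour.

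Cldn1, Cldn8 and Cldn6 were the most variable members, and their differences depended on single tumours. Cldn1, a sealing claudin, had 0.14, -0.82 and -0.87 in the hypomethylated tumours, against 0.19, -0.14 and 0.42 in the control tumours. Hypomethylated replicate 1 lay among the controls and the others well below them. The difference was -0.68 (95% interval -1.34 to -0.02, adjusted p = 0.112), and ranged with 1 tumour left out between -0.50, without hypomethylated replicate 3, and -1.003, without hypomethylated replicate 1 (adjusted p = 0.00453 in that fit). It also passed with array weights, at -0.78 (adjusted p = 0.0222). Cldn6, known mainly from embryonic epithelium, had 0.48, -0.93 and -0.43 in hypomethylated tumours, against 0.06, -0.06 and 0.31 in control tumours. The difference was -0.40 (adjusted p = 0.417). It was -0.78 without hypomethylated replicate 1 (adjusted p = 0.0156) and -0.077 without hypomethylated replicate 2 (adjusted p = 0.885). In hypomethylated replicate 1 markers of macrophages averaged 0.03, against -0.70 and -0.44 in the other hypomethylated tumours, and those of T and B cells 0.58, against -0.09 and -0.05; their part in these values was not tested. Cldn8, a claudin of the distal colon that seals against sodium, had -0.85, -0.16 and 0.10 in hypomethylated tumours, against 0.51, -0.10 and 1.11 in control tumours. The groups overlapped, and the difference was -0.81 (95% interval -1.62 to -0.0033, adjusted p = 0.118). It was -1.11 without control replicate 2 (adjusted p = 0.0471), -0.51 without control replicate 3 (adjusted p = 0.274) and -0.54 without hypomethylated replicate 1 (adjusted p = 0.263).

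Cldn2, the channel claudin of leaky epithelia, had 0.27, -0.03 and 0.06 in hypomethylated tumours, against -0.24, 0.03 and -0.41 in control tumours. The groups overlapped and the difference of 0.31 did not pass (95% interval 0.01 to 0.61, adjusted p = 0.113); it passed without control replicate 2, at 0.42, and with array weights, at 0.32 (adjusted p = 0.0398 and 0.0360), and was 0.21 without control replicate 3 (adjusted p = 0.271). Cldn9, which is not bright, differed by 0.30 (adjusted p = 0.0526) and passed under 5 of the alternative settings, but was 0.22 without hypomethylated replicate 2 (adjusted p = 0.132). Cldn5, the claudin of blood vessels, differed by -0.12 (95% interval -0.51 to 0.27, adjusted p = 0.653). The remaining 15 claudins, among them Cldn10, Cldn12, Cldn14 and the other Cldn34 genes, had differences between -0.11 (Cldn10) and 0.22 (Cldn13), and none passed.

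**Figure D2:**
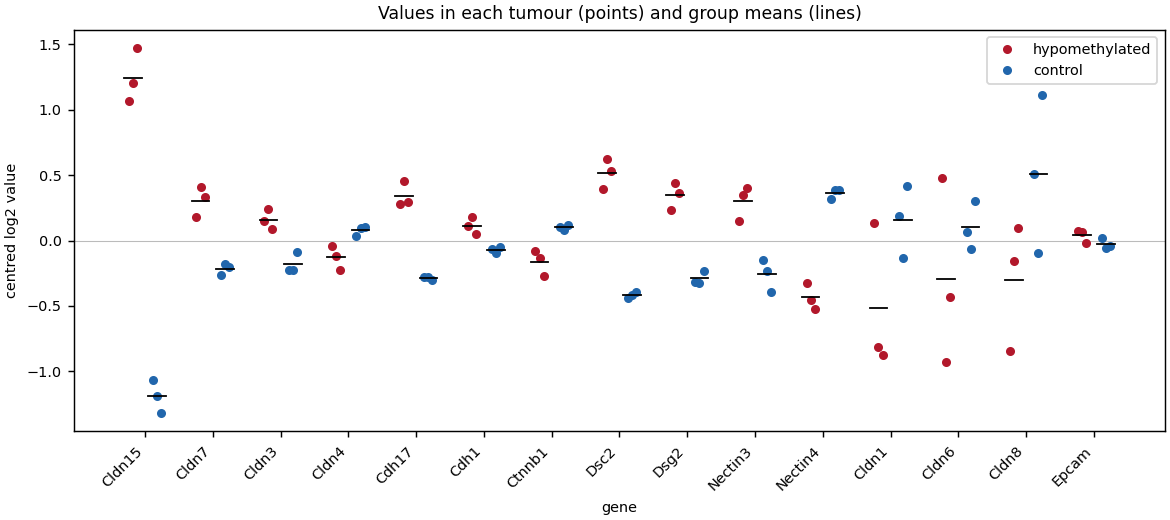
Centred log2 values (vertical axis) of 15 junction genes in each tumour, hypomethylated in red left of control in blue, with group means as black lines. Cldn15 has the widest gap between groups, Nectin4 and Ctnnb1 lie lower in hypomethylated tumours, and the groups overlap in Cldn1, Cldn6, Cldn8 and Epcam.

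Differences of members that sit close together on a chromosome were set side by side, and no comparison with other pairs of genes was made. By the RefSeq annotation 9 pairs of junction genes lie within 200 kb of each other, most with no coding gene between them. Cldn4 and Cldn3 are such neighbours, and their differences were -0.21 and 0.34 on the log2 scale. Cldn6 and Cldn9 had -0.40 and 0.30, and Cldn1 and Cldn16 -0.68 and 0.17. Differences of opposite sign were also seen in Nectin4 and F11r, with 3 coding genes between them (-0.80 and 0.08), and in Cldn4 and Cldn13, with 1 between (-0.21 and 0.22). Cldn8 and Cldn17 had -0.81 and -0.08, Marveld2 and Ocln -0.22 and -0.07, Cldn22 and Cldn24 0.02 and -0.01, and Cldn34b4 and Cldn34b3 0.13 and 0.05. Among these genes only Cldn3, Nectin4 and Marveld2 passed the test, so in no pair did both genes pass. The difference between neighbours was not tested.

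The 250 bases before the annotated start are shown for the members with the largest called difference in each direction, Cldn15 and Nectin4, and for the adjacent Cldn3 and Cldn4, because CpG sites are what DNMT1 methylates. Sequences are from RefSeq (GRCm38.p6), read on the gene's strand, with each CpG in capitals. The window of Cldn15 is chr5:136967619-136967868 on the plus strand and holds 7 CpG sites. That of Nectin4 is chr1:171369923-171370172 on the plus strand and holds 3. That of Cldn3 is chr5:134985964-134986213 on the plus strand and holds 9, and that of Cldn4 is chr5:134946935-134947184 on the minus strand and holds 7.
Cldn15: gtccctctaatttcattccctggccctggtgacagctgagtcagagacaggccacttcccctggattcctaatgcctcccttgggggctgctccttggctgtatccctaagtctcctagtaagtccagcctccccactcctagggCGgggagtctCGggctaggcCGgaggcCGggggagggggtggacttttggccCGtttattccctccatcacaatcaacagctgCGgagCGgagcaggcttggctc
Nectin4: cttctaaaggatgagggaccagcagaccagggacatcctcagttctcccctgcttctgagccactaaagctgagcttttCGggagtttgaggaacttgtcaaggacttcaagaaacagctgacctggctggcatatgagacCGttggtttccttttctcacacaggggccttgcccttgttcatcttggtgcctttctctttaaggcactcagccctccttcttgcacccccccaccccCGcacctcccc
Cldn3: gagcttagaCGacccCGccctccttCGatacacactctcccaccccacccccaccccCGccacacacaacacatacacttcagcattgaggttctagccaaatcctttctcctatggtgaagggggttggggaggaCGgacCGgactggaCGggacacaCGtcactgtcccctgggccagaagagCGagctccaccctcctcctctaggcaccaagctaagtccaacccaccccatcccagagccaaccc
Cldn4: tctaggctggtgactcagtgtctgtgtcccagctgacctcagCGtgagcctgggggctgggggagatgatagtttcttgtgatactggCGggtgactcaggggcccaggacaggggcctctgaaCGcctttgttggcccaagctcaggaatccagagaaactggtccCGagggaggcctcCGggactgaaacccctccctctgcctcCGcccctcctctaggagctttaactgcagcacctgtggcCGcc

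Promoter windows were at hand for 38 of the 55 genes, 51 windows in all since some genes have several starts. The number of CpG sites per window had a median of 7 in members called higher (13 windows of 9 genes, 2 to 30). It was 14 in those called lower (5 windows of 3 genes, 3 to 43). In the others it was 8 (33 windows of 26 genes), beside 6 over all 32851 windows. Windows of 1 gene can overlap, as those of Ctnnb1 and of Marveld2 do, so they are not separate units. The highest was a window of Ctnnb1 with 43. Searched on both strands, the letters CATAAA of Cdx factors were in 11.8% of member windows and 10.8% of all windows, and CACCTG, an E-box that Snail and Zeb factors can bind, in 19.6% and 17.2%. AACCNGTT of grainyhead factors was in 3.92% and 1.79%, and CAAAGTNCA of Hnf4 in 3.92% and 1.19%, or 2 member windows each. Each motif was counted by itself, also where matches of different motifs overlapped, and these shares are descriptions of the windows only. The Cldn15 window held none of these motifs and the Cldn4 window had the E-box letters.

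The other membrane proteins of the tight junction did not follow the claudins that rose. In limma none of 7 was higher, also at an unadjusted p under 0.05, and 2 were lower (4 at an unadjusted p under 0.05). The share called lower was 28.6%, beside 21.3% of all genes. Jam2, an adhesion protein of endothelial cells, had -0.13, -0.13 and -0.06 in hypomethylated tumours, against 0.28, 0.06 and 0.23 in control tumours, and fell by 0.29 on the log2 scale (SE 0.07, adjusted p = 0.0217). Marveld2, or tricellulin, which seals the points where 3 cells meet, had -0.13, -0.14 and -0.07, against 0.10, 0.16 and 0.07 in control tumours, and fell by 0.22 (SE 0.06, adjusted p = 0.0216). The groups were separate in both, but each call was lost without hypomethylated replicate 2 and without control replicate 1, that of Jam2 also without control replicate 3 and that of Marveld2 without control replicate 2.

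Beside Jam2, 8 of 14 endothelial markers were lower (57.1%) and 1 higher (7.14%), beside 21.3% and 10.7% of all genes. Their mean lay between -0.35 and -0.06 in hypomethylated tumours and between 0.05 and 0.15 in control tumours, and the part of vessel content in Jam2 was not tested. Centred values cannot show whether a marker was absent. Ocln, the gene of occludin, had -0.18, 0.03 and -0.03 in hypomethylated tumours, against 0.06, 0.03 and -0.04 in control tumours, with a difference of -0.07 (95% interval -0.24 to 0.10, adjusted p = 0.499). F11r, the junctional adhesion molecule of epithelium, had 0.03, 0.06 and 0.03 in hypomethylated tumours, against -0.03, -0.05 and -0.04 in control tumours. These groups were separate, though the difference was 0.08 (95% interval -0.04 to 0.19, adjusted p = 0.307). Jam3, Marveld1 and Marveld3 differed by -0.15, -0.19 and 0.01 and did not pass.

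Of the 4 plaque proteins measured, 2 were higher (50%, beside 10.7% of all genes). Cgn, cingulin, which links tight junctions to actin and myosin, had 0.10, 0.38 and 0.09 in hypomethylated tumours, against -0.13, -0.09 and -0.20 in control tumours, and rose by 0.33 ± 0.09 (SE) on the log2 scale (adjusted p = 0.0280). Tjp3, the zonula occludens scaffold found mainly in epithelium, had 0.07, 0.28 and 0.10, against -0.12, -0.07 and -0.09 in control tumours, and rose by 0.25 ± 0.07 (adjusted p = 0.0346). Hypomethylated replicate 2 was the highest in both. The call of Cgn was lost without each control tumour in turn, and that of Tjp3 without each tumour except hypomethylated replicate 1. Tjp1, the more widely expressed scaffold, had -0.08, -0.01 and -0.12, against 0.01, 0.04 and 0.07 in control tumours. Its difference was -0.11 (95% interval -0.24 to 0.02, adjusted p = 0.195), and Cgnl1 differed by 0.05.

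Nectins gave the largest called decrease beside increases in the same family. Nectin4, which in adults is found in skin and in several carcinomas, had -0.32, -0.45 and -0.52 in hypomethylated tumours, against 0.32, 0.38 and 0.39 in control tumours. The groups were far apart, and Nectin4 fell by 0.80 on the log2 scale (SE 0.07, 1.74-fold lower, adjusted p = 4.98e-04), with the call kept whichever tumour was left out. Nectin3 had 0.15, 0.34 and 0.41, against -0.15, -0.24 and -0.39 in control tumours, and rose by 0.56 ± 0.09 (1.47-fold, adjusted p = 0.00468). Nectin1, a partner of Nectin3 across the junction, had 0.11, 0.19 and 0.46, against -0.11, -0.35 and -0.11 in control tumours, and rose by 0.44 ± 0.11 (adjusted p = 0.0228), a call lost without hypomethylated replicate 3 and without control replicate 2. So the family split, with Nectin2 at 0.17 (adjusted p = 0.0819) not passing. In all 4 nectins the groups did not overlap, beside 46.4% of all genes.

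**Figure D3:**
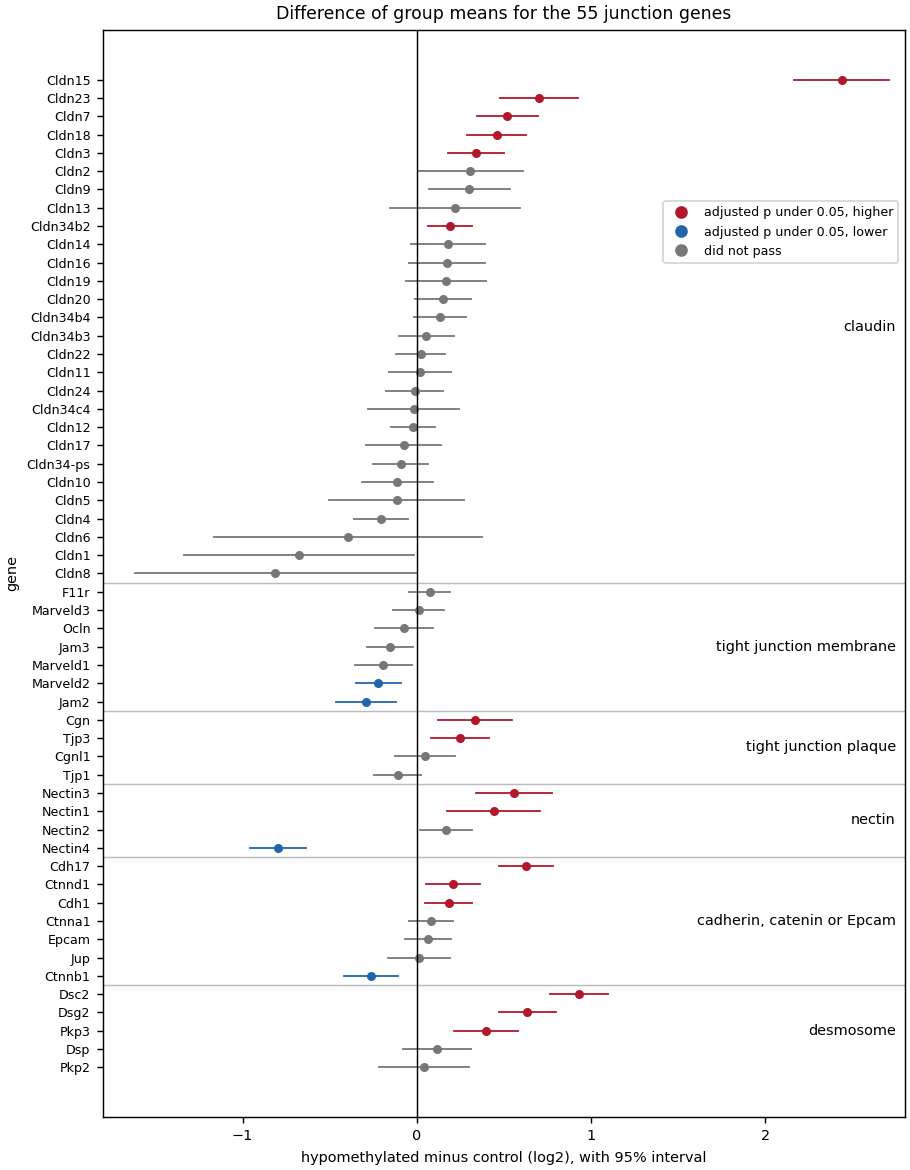
Difference of group means, hypomethylated minus control, on the log2 scale (horizontal axis) with its 95% interval for each of the 55 genes, by gene group, red where higher, blue where lower and grey where the test was not passed. Cldn15 at 2.44 stands apart, most others lie between -0.5 and 1, and the widest intervals belong to Cldn6, Cldn1 and Cldn8.

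Among cadherins and catenins, the intestinal cadherin moved more than the classical one. Cdh17, a cadherin of the lateral membrane of intestinal cells and a known target of CDX2, had 0.28, 0.45 and 0.30 in hypomethylated tumours, against -0.28, -0.28 and -0.30 in control tumours. All hypomethylated tumours were higher, and Cdh17 rose by 0.63 ± 0.06 (SE) on the log2 scale (1.55-fold, adjusted p = 8.59e-04), a call kept whichever tumour was left out. Cdh1, E-cadherin, had 0.11, 0.18 and 0.05, against -0.06, -0.10 and -0.05 in control tumours, and rose by 0.18 ± 0.06 (1.14-fold, adjusted p = 0.0479). Ctnnd1, p120-catenin, which keeps E-cadherin at the membrane, rose by 0.21 ± 0.06 (adjusted p = 0.0475). These calls of Cdh1 and Ctnnd1 sit at the threshold and were lost whichever tumour was left out.

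Ctnnb1, beta-catenin, went the other way. It had -0.08, -0.13 and -0.27 in hypomethylated tumours, against 0.10, 0.08 and 0.12 in control tumours. The groups did not overlap, and Ctnnb1 fell by 0.26 on the log2 scale (SE 0.07, 1.20-fold lower, adjusted p = 0.0219), a call lost without hypomethylated replicate 3 and without each control tumour in turn. Ctnna1, alpha-catenin, had 0.01, 0.10 and 0.03, against -0.04, -0.05 and -0.01 in control tumours, with a difference of 0.08 (95% interval -0.05 to 0.21, adjusted p = 0.309). Jup, plakoglobin, which serves both adherens junctions and desmosomes, differed by 0.01 (adjusted p = 0.918).

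Epcam, an adhesion protein found on nearly all colon epithelial cells, had 0.07, 0.06 and -0.02 in hypomethylated tumours, against 0.02, -0.06 and -0.04 in control tumours. The groups overlapped, and the difference was 0.06 (95% interval -0.07 to 0.20, adjusted p = 0.453). Of 11 epithelial markers 8 were higher (72.7%) and 1, Krt7, lower (9.09%), beside 10.7% and 21.3% of all genes. Their means were 0.11 to 0.24 in hypomethylated tumours and -0.17 to -0.13 in control tumours. Without control replicate 1, 6 were higher, and Krt7 lost its call without control replicate 1 or control replicate 2. The higher ones included Vil1 (1.02), a brush border protein, and Krt19 (0.38), and also Cldn7, which is on both lists. Among 12 fibroblast markers, 8 fell (66.7%) and 1 rose (8.33%). Their means were -0.54 to -0.08 in hypomethylated tumours and 0.09 to 0.44 in control tumours. The lower ones numbered 4 without hypomethylated replicate 3. Among 11 markers of smooth muscle 5 fell (45.5%), with means of -0.24 to -0.08 in hypomethylated tumours and 0.09 to 0.27 in control tumours. The lower ones numbered 3 without hypomethylated replicate 2 and 3 without hypomethylated replicate 3. The endothelial count of 8 was 3 without hypomethylated replicate 3, control replicate 2 or control replicate 3. Macrophage markers were lower in 4 of 11 (36.4%). That count was 9 without hypomethylated replicate 1 and 0 with any other tumour left out. Of 9 T and B cell markers 1, Ms4a1, was higher (11.1%, near the 10.7% of all genes). The higher ones numbered 0 without control replicate 1 and 2 without hypomethylated replicate 3. Without hypomethylated replicate 1, 1 other was lower. The part of cell makeup in the junction gene differences was not tested.

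Of 5 desmosome genes 3 were higher (60%) and none lower, beside 10.7% and 21.3% of all genes. No other group of junction genes had a higher share of increases, but these groups are small. Nectins and plaque proteins, 4 genes each, had 50%. Dsc2, a desmosomal cadherin of simple epithelium, had 0.39, 0.62 and 0.53 in hypomethylated tumours, against -0.44, -0.42 and -0.39 in control tumours, and rose by 0.93 ± 0.07 (SE) on the log2 scale (1.91-fold, adjusted p = 3.66e-04). Its partner cadherin Dsg2 had 0.23, 0.44 and 0.37, against -0.32, -0.32 and -0.23 in control tumours, and rose by 0.64 ± 0.07 (1.55-fold, adjusted p = 0.00104). The plaque protein Pkp3 had 0.14, 0.37 and 0.16, against -0.23, -0.16 and -0.14 in control tumours, and rose by 0.40 ± 0.08 (1.32-fold, adjusted p = 0.00865). The groups were separate in these 3 genes, and their calls were kept whichever tumour was left out. Dsp, desmoplakin, which anchors keratin, differed by 0.12 (95% interval -0.08 to 0.31, adjusted p = 0.347) and Pkp2 by 0.04 (95% interval -0.21 to 0.30, adjusted p = 0.811).

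The tumours of a group also differed among themselves. The counts and SDs here cover the junction genes only, and those over all genes were not taken. Hypomethylated replicate 2 had the highest value of its group in 32 of the 55 genes and the lowest in 9. Control replicate 2 was the lowest control in 29 genes and control replicate 3 the highest in 29. The median SD over the 55 genes was 0.10 in hypomethylated tumours and 0.05 in control tumours. The junction genes averaged 0.05, 0.11 and 0.05 in the hypomethylated tumours, against -0.05, -0.10 and -0.01 in the control tumours.

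Junction genes outside the rule were set beside these members from lists of 15 groups of junction, regulator and marker genes. Of 21 other cadherins none was higher in limma, also at an unadjusted p under 0.05, and 5 were lower, at 23.8% near the background of 21.3%. Those with the smallest p were Cdh13 (-0.60), Cdh5 of endothelium (-0.91), Cdh2 or N-cadherin (-0.65, not bright) and Cdh11 of fibroblast-like cells (-1.41). These 4 are known mostly from cells other than colon epithelium, and Cdh5 is itself among the endothelial markers counted above. The other lower one was Cdh3, or P-cadherin, at -0.49 (limma, adjusted p = 0.0302). Its call was lost without hypomethylated replicate 2 or 3 or control replicate 1 or 3, which left 4 lower. The part of stromal content, whose markers were lower as given above, was not tested. Of 10 other desmosome genes 2 were higher (20%) and 3 lower (30%), beside 10.7% and 21.3% of all genes. Without control replicate 1, 1 was higher. Dsg4, a desmosomal cadherin of hair follicle, is not bright. It had -0.84, -0.89 and -0.997 in hypomethylated tumours, against 1.01, 1.06 and 0.84 in control tumours, and fell by 1.88 on the log2 scale (adjusted p = 6.13e-05). Perp, a desmosome protein of stratified epithelium, rose by 0.74, while Ppl and Pkp1 fell by 0.40 and 0.38.

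Immunoglobulin-type junction proteins and angulins, which bring tricellulin to the corners between cells, numbered 12. Of these, 2 rose (16.7%) and 5 fell (41.7%), beside 10.7% and 21.3% of all genes. Ildr1, an angulin, had 0.62, 1.00 and 0.81 in hypomethylated tumours, against -0.83, -1.04 and -0.62 in control tumours. It rose by 1.64 on the log2 scale (limma, adjusted p = 4.33e-04), whereas Marveld2, tricellulin itself, was lower. The other angulins, Lsr and Ildr2, differed by -0.11 and -0.16 and did not pass (adjusted p = 0.317 and 0.171). Igsf5, an adhesion protein of intestinal and kidney epithelium, rose by 0.55, and Cadm1 and Cadm4 fell by 0.81 and 0.42. Among 40 polarity and plaque genes 6 rose and 9 fell, shares of 15% and 22.5% beside 10.7% and 21.3% of all genes. Pard6g of the polarity complex fell by 1.49, the angiomotin genes Amot and Amotl1 by 1.36 and 0.80, and Shroom3, which draws the apex of a cell together, rose by 0.69. Of 16 actomyosin genes 2 were higher and 4 lower, at 12.5% and 25% near the shares over all genes. Only 1 was higher without each control tumour in turn, and 3 were lower without any tumour other than hypomethylated replicate 1. Among these actomyosin genes Myh14, a non-muscle myosin of epithelium, rose by 0.92. Myl9, a myosin light chain abundant in smooth muscle, fell by 1.03, and Epb41l5 and Arhgef2 fell by 0.74 and 0.45.

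Connexins, which form gap junctions, were higher in 1 of 16 and lower in 2, at 6.25% and 12.5% below the shares over all genes. Gjb2, which like Gja5 is not bright, had 0.68, 0.75 and 1.23 in hypomethylated tumours, against -0.68, -0.76 and -0.79 in control tumours. Gjb2 rose by 1.63 on the log2 scale (adjusted p = 5.18e-04). Gja1 and Gja5, found in muscle and vessels among other cells, fell by 0.83 and 0.44. The call of Gja5 was lost without hypomethylated replicate 2, which left 1 lower connexin, and 3 were lower without hypomethylated replicate 1.

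Transcription factors known to act on junction genes also moved. Of 10 repressors of epithelial junction genes 5 were lower (50%), beside 21.3% of all genes. None was higher in limma, also at an unadjusted p under 0.05, and 1 was higher without hypomethylated replicate 3. Tcf4 fell by 1.05, Tcf3 by 0.58, and Snai1 and Zeb1, which repress E-cadherin, both fell by 0.49. Several of these repressors are expressed by stromal cells, whose markers were lower as given above, and that share was not tested. Of 13 activators 6 were higher (46.2%) and 2 lower (15.4%), beside 10.7% and 21.3% of all genes. The 6 include Elf3, which is also counted among the epithelial markers above. Hnf4a, a nuclear receptor of gut epithelium, had 0.22, 0.49 and 0.29 in hypomethylated tumours, against -0.22, -0.27 and -0.30 in control tumours, and rose by 0.60 (adjusted p = 0.00210). Klf4, a factor of differentiated colon cells, rose by 1.54, and Cdx2, of intestinal identity, by 3.49. Of the 3 grainyhead factors, which bind many junction genes in epithelium, Grhl3 fell by 0.67 and Grhl2 by 0.33, while Grhl1, at -0.23, did not pass (adjusted p = 0.113). Markers of stratified epithelium were higher in 2 of 11 and lower in 2 (18.2% each), beside 10.7% and 21.3% of all genes. They were led by Sprr1a (1.73), whereas Krt6a and Krt14 fell by 0.61 and 0.78. Only 1 was higher without hypomethylated replicate 2 or 3 or control replicate 1 or 2.

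**Figure D4:**
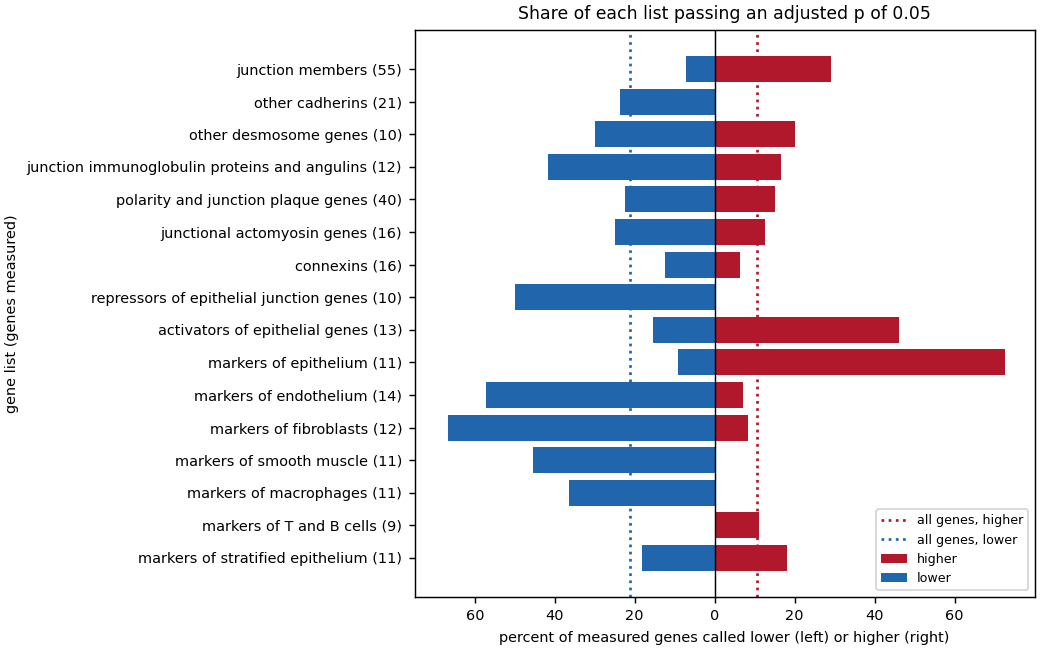
Percent of measured genes in each list that passed an adjusted p of 0.05 as lower (blue, leftwards) or higher (red, rightwards) in hypomethylated tumours, with the number measured in brackets and dotted lines at the shares over all genes. Bars are longest on the higher side for epithelial markers (72.7%) and activators (46.2%), and on the lower side for markers of fibroblasts (66.7%) and endothelium (57.1%). Several other lists also pass a line. Some lists share genes, such as Elf3, which was higher and is in both epithelial markers and activators.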

How the data were processed

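Total RNA from 6 mouse colon tumours was biotin-labelled and hybridised to Affymetrix arrays, per the labels' protocols; 4 of the sample descriptions carry the name of a mouse Gene ST array type. The authors deposited log2 values, 1 per probe set and array, each probe set centred on its median over the 6 arrays; no source used here gives the normalization or the log base, and base 2 was inferred. Of 28856 probe sets, 21789 had 1 gene symbol in the platform annotation and were averaged into 19938 genes named through Entrez numbers; among members, only Cldn10 had several. All 55 members matched RefSeq (GRCm38.p6). The comparison used lmFit and eBayes of limma 3.58.1 in R 4.3.3 on all genes and 6 tumours, without a trend or block (3.02 prior degrees of freedom), two-sided, with Benjamini-Hochberg adjustment over all genes. No filter on dim probe sets could be set on centred values; steps of 2 to the power of minus 20 marked bright probe sets. The scripts were tested on simulated data.

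Members and lists were chosen with earlier results of these data known. All members could be named; from each other list up to 4 genes with the smallest p were, and Dnmt1, Apc, Cdx2, Hnf4a, Grhl2, Snai1 and Zeb1 in any case. Krt7, Grhl1, Lsr, Ildr2, Cdh3 and Elf3 were named after their values were seen. Alternatives were a replicate block, quantile normalization, median centring of arrays, array weights, robust eBayes, genes with 1 probe set, bright probe sets, other thresholds, and leaving out each tumour. Precision rests on the number of arrays.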

Additional observations from a re-analysis of the deposited data

How the results depend on the processing

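The 16 higher and 4 lower junction genes kept their counts within 1.5 times under quantile normalization, median centring, array weights, robust eBayes, genes with 1 probe set and bright probe sets. At an adjusted p of 0.01 they were 10 and 1, and with a difference of at least 0.5 also required 7 and 1. Leaving out 1 tumour gave 11 to 14 higher and 1 to 8 lower genes. The titles' replicate number used as a replicate block gave 12 higher and 1 lower. Same-numbered tumours did not deviate together (correlations over genes of -0.29, -0.31 and -0.22). With 3 tumours in each group this cannot settle whether the numbers pair tumours. Calls of 11 of the 20 genes, 10 higher and 1 lower, were kept whichever tumour was left out. Of 805 values of single genes under alternatives, 66 were no longer past the threshold, 17 newly passed it and 22 changed sign, none of these in a called gene; the cause was not tested. Without 1 tumour those that changed sign spanned Cgnl1 -0.0044 to 0.11, Cldn11 -0.035 to 0.069, Cldn12 -0.045 to 0.0018, Cldn17 -0.13 to 0.011, Cldn22 -0.016 to 0.050, Cldn24 -0.042 to 0.038, Cldn34c4 -0.12 to 0.054, Cldn5 -0.24 to 0.042, Jup -0.059 to 0.054, Marveld3 -0.026 to 0.048, Pkp2 -0.039 to 0.14, and with array weights they were Cldn11 -0.033, Cldn22 -0.0055, Jup -0.039, Marveld3 -0.0085.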
